A study of Mus musculus with 8 samples.

Results

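Low.UMI.Pep is the name the authors gave to 1 of 20 clusters of cells from mouse dorsal root ganglia, and the name places it among peptidergic neurons with few unique molecular identifiers (UMIs, the tags that count single RNA molecules) per cell. Its members here are the 3027 genes listed for this cluster in the authors' deposited table of cluster markers, of 9229 genes and 56694 pairs of gene and cluster in all. Each listed gene carries a log2 fold change of the cluster's cells over the cells of all other clusters, the share of cells with at least 1 UMI of the transcript on both sides, and an adjusted p-value. From the shares, the cluster was calculated to hold 14.1% of all cells in the table, the largest share of the 20 clusters.

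The ganglia came from C57BL/6 mice aged 21 to 30 days, and those of 4 mice were pooled for each sample. Living cells were fed for 30 min with an antibody against β5, a subunit of the proteasome, then for 40 min with a fluorescent secondary antibody, and were sorted into positive and negative cells. The target is the neuronal membrane proteasome (NMP), which is a 20S proteasome reported at the plasma membrane of nerve cells. The 8 samples are 4 sequencing lanes of 1 library from each of the 2 populations, so neither population has a biological replicate. The marker table merges both populations and has no sample column, so NMP-positive and NMP-negative cells of Low.UMI.Pep could not be compared. No number of cells and no UMI total per cell is in the table either, so no error, interval or test is attached to the values below. The cluster was also made from the same cells and genes that it is described with, and the p-values were computed over cells, so an adjusted p under 0.05 was used here only as a filter, and "higher" and "lower" mean the sign of the deposited fold change past that filter.

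Sensory neurons of the dorsal root ganglion carry signals of touch, temperature, itch and pain from skin and viscera to the spinal cord. Peptidergic nociceptors are those that package neuropeptides such as substance P and calcitonin gene-related peptide (CGRP) into large dense-core granules and release them at both ends of the axon, where the peptides act on blood vessels, immune cells and spinal neurons. Granins such as secretogranin II are the acidic proteins that help to form the granules.

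The 3 genes that lead the cluster encode this cargo. In the authors' deposited table, Tac1, the precursor of substance P, had a log2 fold change of 2.51, Calca, the precursor of CGRPα, one of 2.48, and Scg2, secretogranin II, one of 2.06. Transcripts of Tac1 were found in 95.2% of Low.UMI.Pep cells and 67.8% of other cells, those of Calca in 95.5% and 76.9%, and those of Scg2 in 75.9% and 48.6%, per the same deposited table. These genes were given as the cluster's markers and lead its own marker test, so they describe the cluster and give its name no support.

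The promoters of these genes are shown because all 3 hold the core of the cyclic AMP response element, TGACG on either strand, which the transcription factor CREB is known to bind. The motif was chosen after the leading genes were known. Each sequence runs from 250 bases before to 50 bases after the gene's start, is taken from RefSeq for mouse build GRCm38.p6 and is written in the sense of the gene, with TGACG and its reverse complement CGTCA in capitals. The Tac1 promoter is chr6:7554811-7555110 on the plus strand, that of Calca chr7:114636308-114636607 on the minus strand and that of Scg2 chr1:79439977-79440276 on the minus strand.
Tac1: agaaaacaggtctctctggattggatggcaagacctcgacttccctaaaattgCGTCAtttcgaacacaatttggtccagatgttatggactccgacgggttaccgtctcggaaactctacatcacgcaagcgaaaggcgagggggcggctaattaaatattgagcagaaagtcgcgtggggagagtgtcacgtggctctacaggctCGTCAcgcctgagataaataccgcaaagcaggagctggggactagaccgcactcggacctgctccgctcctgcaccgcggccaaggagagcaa
Calca: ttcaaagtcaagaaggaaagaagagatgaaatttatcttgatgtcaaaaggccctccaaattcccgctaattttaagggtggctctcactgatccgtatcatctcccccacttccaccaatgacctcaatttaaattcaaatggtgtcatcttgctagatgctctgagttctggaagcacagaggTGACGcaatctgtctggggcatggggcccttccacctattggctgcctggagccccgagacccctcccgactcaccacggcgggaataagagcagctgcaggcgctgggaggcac
Scg2: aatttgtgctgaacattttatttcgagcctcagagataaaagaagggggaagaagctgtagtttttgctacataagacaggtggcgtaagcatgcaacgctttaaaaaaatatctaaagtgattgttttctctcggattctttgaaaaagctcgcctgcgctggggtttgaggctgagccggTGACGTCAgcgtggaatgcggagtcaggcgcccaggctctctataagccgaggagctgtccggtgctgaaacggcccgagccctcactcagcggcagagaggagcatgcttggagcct
Tac1 held 2 copies, both on the reverse strand, Calca held 1 on the forward strand, and in Scg2 the forward and reverse matches overlap in the palindrome TGACGTCA. The promoters of Adcyap1, Gal and Cartpt, which are described below, also held at least 1 match. TGACG or its complement was in 20.8% of the 32851 mouse promoters of the RefSeq table and in 34.1% of the 7147 genes of the marker table that had a promoter there. The first share counts promoters, while the shares of genes count a match in any promoter of a gene, so the first is not directly comparable with them. By the filter above, 10.8% of the 9229 genes were higher and 20.7% lower in Low.UMI.Pep. TGACG was in 41.7% of the 793 higher genes with a promoter and 33.9% of the 1476 lower ones, and the full palindrome was in 1.79% of all promoters. These are matches of letters only, and no binding was measured.

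Past the filter, 993 genes were higher and 1907 lower in Low.UMI.Pep than in the other cells, which is 10.8% and 20.7% of the 9229 genes of the table, and 127 listed genes did not pass. Fold change and share of cells went apart in most higher genes. Of the 993, 952 (95.9%) were found in a smaller share of Low.UMI.Pep cells than of other cells, 1 in an equal share and 40 in a larger one. This share depended on the size of the change, and was 81.1% of the 212 genes higher by at least 0.5 and 29.6% of the 27 genes higher by at least 1 on the log2 scale. None of the 1907 lower genes was found in a larger share. Summed over the 3027 listed genes, an average Low.UMI.Pep cell had a transcript of 435 of them, against 1420 in an average other cell. The median higher gene was in 21.7% of Low.UMI.Pep cells and 54.2% of other cells, and the median lower gene in 2.9% and 43.2%. A higher fold change here therefore does not mean that more cells had the transcript.

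**Figure D1:**
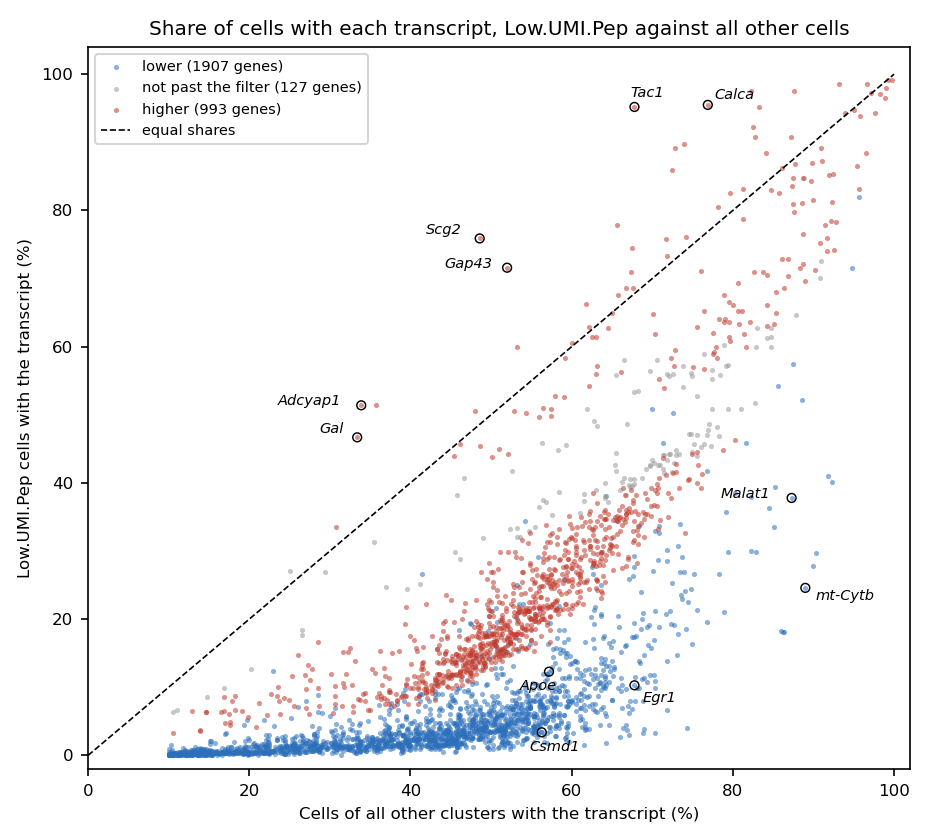
Share of cells with the transcript (%) in Low.UMI.Pep (vertical) against all other cells (horizontal), 1 point for each of the 3027 listed genes, coloured by its call. Most of the 993 higher genes lie below the dashed line of equal shares, in a band above the 1907 lower genes, and Tac1, Calca, Scg2, Gap43, Adcyap1 and Gal stand above the line.

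Higher and lower genes also stood apart among genes of like detection in other cells. The calls and the shares come from the same cells, so this gap follows in part from the call itself and is a description only. Among genes found in 40 to 60% of other cells, the 566 higher genes had a median of 17.9% of Low.UMI.Pep cells and the 852 lower genes one of 4.4%. Among genes in 80 to 100% of other cells, the medians were 81.2% for 75 higher genes and 37.9% for 22 lower genes. Among the remaining clusters, a higher level in a smaller share of cells was most frequent in those with the same prefix: 94.8% of the higher genes of Low.UMI.Nonpep and 95.2% of those of Low.UMI.LTMR were found in fewer cells of that cluster, by share, than of the others, against 0% in each of the named neuron clusters without the prefix, such as CGRP-e and Peptidergic.488p. Over the 7 Unknown clusters that share was 0 to 28.5%, with the highest in Unknown.4.

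For the 40 higher genes found in a larger share of Low.UMI.Pep cells, both measures point the same way. Their log2 fold changes reached 1 or more in 19 and 0.5 or more in 39. By the gap in share, Tac1 and Scg2 led with 27.4 and 27.3 percentage points, followed in the authors' deposited table by Gap43 with 19.6, Calca with 18.6 and Adcyap1 with 17.5. The 40 include 4 of the neuropeptide precursors and 9 genes of the list of growth-associated proteins, tubulins and stathmins. They also include the neuronal cytosolic proteins Uchl1, a ubiquitin hydrolase that marks neurons (97.6% of Low.UMI.Pep cells and 87.6% of other cells in the authors' deposited table), and Sncg, γ-synuclein (98.6% and 93.2%). At the other end, the higher genes with the widest deficit in share were Cdk8, a kinase of the Mediator complex, Syf2, a splicing factor, Etfb, an electron transfer flavoprotein subunit, Dnajc8 and Lars2, a mitochondrial leucyl-tRNA synthetase. For Cdk8 the authors' deposited table gives a log2 fold change of 0.32 with 32.7% of Low.UMI.Pep cells and 74.1% of other cells. Syf2 had 0.28 with 16.7% and 57.3% there, so for both genes the 2 measures have opposite signs.

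Several neuropeptide precursors were higher. Of 13 precursors in the table, 6 were listed for Low.UMI.Pep, 5 of these were higher and none lower, beside 10.8% higher and 20.7% lower over all genes, and the median log2 fold change of the 6 was 1.44, against -0.32 over all 3027 listed genes. Beside Tac1 and Calca, the authors' deposited table gives 1.5 for Adcyap1, the precursor of the peptide PACAP (51.4% of Low.UMI.Pep cells and 33.9% of other cells), and 1.39 for Gal, the precursor of galanin (46.7% and 33.4%). Calcb, the precursor of CGRPβ, had 0.88 in that table with 45% of Low.UMI.Pep cells and 51% of other cells, a higher level in fewer cells. Cartpt, the precursor of the CART peptides, was the listed precursor that did not pass, at 1.23 in the authors' deposited table with 27.1% and 25.1%.

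To set clusters side by side, each deposited fold change was converted to a level relative to the mean of all cells, on a log2 scale. On that scale Low.UMI.Pep ranked first for Tac1 at 1.78, with CGRP-e next at 1.21 and Peptidergic.488p last at -3.96, over the 18 clusters that list the gene. For Calca the top 2 lay close, Low.UMI.Pep at 1.76 and CGRP-e at 1.74. Scg2 was at 1.53 in Low.UMI.Pep and 1.19 in CGRP-e. For Gal and Adcyap1, at 1.09 and 1.17, Low.UMI.Pep came behind CGRP-z (1.74) and CGRP-a (1.45) for Gal and behind CGRP-a (1.36) and CGRP-e (1.21) for Adcyap1. Cartpt was at 0.98 in Low.UMI.Pep, at rank 3, and highest in CGRP-n at 1.70. Calcb was at 0.72 in Low.UMI.Pep, also at rank 3, and highest in Low.UMI.Nonpep at 0.99. With no replicate, no spread is known for these ranks.

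**Figure D2:**
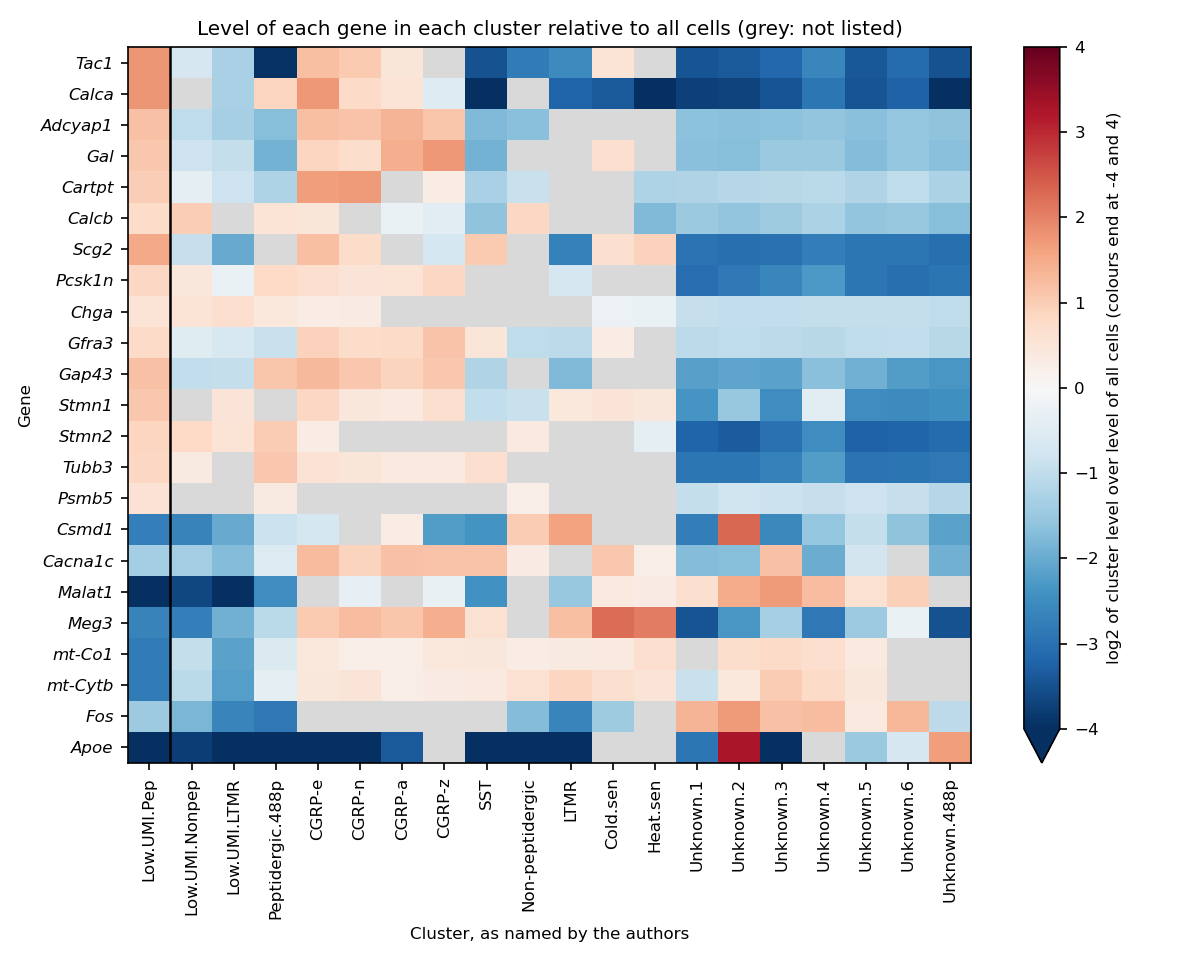
Level of 23 genes (rows) in the 20 clusters (columns, Low.UMI.Pep at the left) as log2 of the cluster's level over the level of all cells; grey means that the gene is not listed for the cluster. Tac1, Calca and Scg2 are at 1.78, 1.76 and 1.53 in Low.UMI.Pep and below 0 in the Unknown clusters, while mt-Co1 and mt-Cytb are at -2.79 and -2.80 in Low.UMI.Pep, the lowest of the clusters that list them.

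Free RNA in droplets can give a UMI in cells that do not express a gene, and the 7 clusters the authors named Unknown, in each of which the neuronal genes Tubb3, Stmn2 and Gap43 were below the level of all cells, were used for comparison. An average cell of these clusters had 626 to 1400 of the genes listed for its own cluster. The share of cells with Tac1 was 95.2% in Low.UMI.Pep and 31.5 to 47.2% over the Unknown clusters, and that with Calca 95.5% in Low.UMI.Pep and 34.2 to 61.0% over Unknown ones, per the authors' deposited table. That table has Scg2 in 6.1 to 7.9% of Unknown cells, Adcyap1 in 3.7 to 7.1%, Gal in 3.4 to 9.2% and Gap43 in 6.2 to 15.3%. The part of free RNA in the shares of Low.UMI.Pep was not tested.

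Most of the other genes of peptidergic C fibres were higher too. Of 10 such genes in the table, 9 were listed and 8 were higher, beside 10.8% over all genes. The median log2 fold change of the 9 was 1.46. Trpv1, a channel that noxious heat opens, was not listed for the cluster. Sstr2, a somatostatin receptor, was higher by 0.34 in the authors' deposited table with 6.4% and 14.6%, and Gpx3, a secreted glutathione peroxidase, did not pass at 1.03 with 27% and 29.4%. The list overlaps with the genes that define the cluster, so its direction is a description of the cluster and not evidence for its name.

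The machinery around the cargo did not follow it as a block. Of 8 granins and granule proteins in the table, 6 were listed, 4 higher and 1 lower, beside 10.8% higher and 20.7% lower over all genes. Beside Scg2, the authors' deposited table gives log2 fold changes of 1.02 for Pcsk1n, an inhibitor of prohormone convertase 1 (89.7% of Low.UMI.Pep cells and 74% of other cells), 0.68 for Chga, chromogranin A (22.8% and 48.2%), and 0.32 for Chgb, chromogranin B (13.5% and 44%). Scg3, secretogranin III, which binds chromogranin A to the granule membrane, was lower at -0.75 with 33.7% and 70.9%, per the authors' deposited table. Scg5, the chaperone of prohormone convertase 2, did not pass at 0.65 in that table. All 3 listed enzymes that trim and amidate peptides were lower, of 7 in the table. They are the carboxypeptidases Cpe, at -0.42 with 30.2% and 71.9% in the authors' deposited table, and Cpd, at -0.51 with 5.8% and 55.5%, and the amidating enzyme Pam, at -0.66 with 20.7% and 63.7%. Their median of -0.51 stands beside -0.32 for all listed genes.

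Genes of vesicle release were mixed, with 5 of 9 listed members higher and 3 lower of 15 in the table. Over all genes 10.8% were higher and 20.7% lower, so the 3 of 15 are near the share of lower genes. None of the 5 was in a larger share of Low.UMI.Pep cells, and Snap25, for example, was in 49.7% of them and 55.9% of other cells. Rab3a, a GTPase of synaptic vesicles, was at 0.74, Snap25, a SNARE protein of the plasma membrane, at 0.72 and Syt4, a synaptotagmin, at 0.58 in the authors' deposited table, while Sv2c, a vesicle glycoprotein, was at -0.55. Vamp2, the SNARE of the vesicle, did not pass at 0.57.

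All 11 listed genes of the axon growth, tubulin and stathmin list were higher, of 14 in the table, beside 10.8% over all genes. Their median log2 fold change was 0.93. In the authors' deposited table Gap43, a growth cone protein, led with 1.51 (71.6% of Low.UMI.Pep cells and 52% of other cells), followed by the microtubule regulators Stmn1 with 1.36 (92.2% and 82.5%) and Stmn2 with 1.07 (97.5% and 82.3%). Tubb3, the neuronal β-tubulin, had 1.04 there (89.2% and 72.8%), and Tuba1a, an α-tubulin, 0.95 (98.5% and 96.6%). Because 9 of the 11 were also in a larger share of cells, both measures have the same sign for most of this list. On the scale of all cells Low.UMI.Pep ranked first for Stmn1 at 1.08 and second for Gap43 at 1.18, after CGRP-e at 1.31. All 4 listed intermediate filament genes of neurons were higher of 5 in the table, led by Nefm at 0.81 and Prph, peripherin, at 0.71 in the authors' deposited table. Nefm was in a smaller share of Low.UMI.Pep cells (49.9% and 57.4%) and Prph in a larger one (95.2% and 83.3%). Other leading genes were Map7d2, a microtubule-associated protein (1.46 in the authors' deposited table), Fxyd7, a regulator of the sodium pump (1.43), the S100 proteins S100a11 (1.44) and S100a13 (1.26), Tmem176b (1.32), the tetraspanin Cd9 (1.30) and Emb, embigin (1.30). Of these, Fxyd7 and S100a11 were in a larger share of Low.UMI.Pep cells and the rest in a smaller one.

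**Figure D3:**
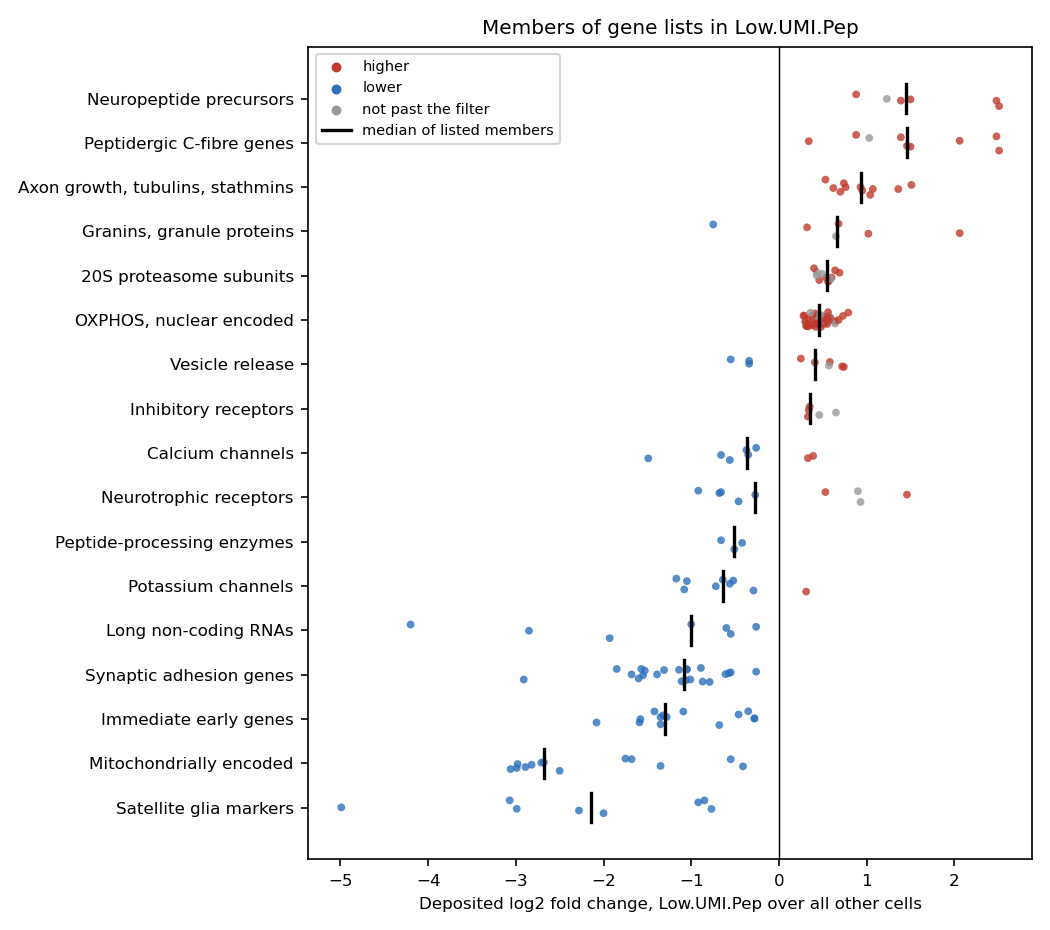
Deposited log2 fold changes of Low.UMI.Pep over all other cells for the listed members of 17 gene lists, 1 point for each gene coloured by its call, with a black bar at the median. Neuropeptide precursors have a median of 1.44 and growth, tubulin and stathmin genes one of 0.93, while mitochondrially encoded genes have one of -2.68 and lie below 0 without exception.

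The listed markers of other sensory neuron classes were lower. Over the lists for Mrgprd, Mrgpra3, Sst and Nppb, Th and Trpm8 neurons, 21 of 40 genes in the table were listed, all 21 lower, with a median log2 fold change of -0.49. The other 19 have no value for the cluster, and the Mrgpra3 list rests on 1 gene, Gfra1, of 5. Examples in the authors' deposited table are Mrgprd, the receptor of nonpeptidergic nociceptors, at -0.49 (0.8% of Low.UMI.Pep cells and 12% of other cells), Il31ra, an itch cytokine receptor, at -0.85 (4.3% and 23.1%), and Piezo2, the touch channel, at -0.86 (9.3% and 45.7%). The genes of peptidergic Aδ fibres were split, with 3 higher and 2 lower of 5 listed. Kit, a receptor tyrosine kinase, was at 0.53 (16.6% and 28.6%) and Nefh, the heavy neurofilament, at 0.30 (15.1% and 43.6%) in the authors' deposited table. Both were thus higher in a smaller share of cells. The sodium channel Scn10a was at -0.48 (19.5% and 47.4%).

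Listed markers of glia, vessels and fibroblasts were lower as well. Of 52 markers of non-neuronal cells in the table, 25 were listed and all 25 were lower, beside 20.7% over all genes. Their median log2 fold change was -1.41. They were 8 markers of satellite glia, 4 of Schwann cells, 6 of endothelium, 3 of mural cells and 4 of fibroblasts, while none of the 9 macrophage markers was listed. Their shares of cells ranged from 0 to 30.7% in Low.UMI.Pep and from 10.1 to 73.2% in other cells, and summed over the 25 markers they came to 120.1% in Low.UMI.Pep, against 677.1% in other cells. Pecam1, an endothelial adhesion molecule, was the one marker at 0% of Low.UMI.Pep cells. The lowest gene of the whole cluster was Apoe, apolipoprotein E of satellite glia, at -4.99 in the authors' deposited table (12.3% of Low.UMI.Pep cells and 57.2% of other cells). Apod, apolipoprotein D, was at -3.44 there (2.3% and 24.2%), Fabp7, a fatty acid binding protein of glia, at -3.07 (2% and 18.1%), and Sparc, a matrix glycoprotein, at -2.99 (2.3% and 40.7%). On the scale used above, relative to all cells, Apoe was at -4.78 in Low.UMI.Pep and lowest in Peptidergic.488p, at -5.84. For non-neuronal markers listed for both clusters, Low.UMI.Pep had a median difference in level of 0.03 from CGRP-e (15 markers). It was 0.09 from Peptidergic.488p (19 markers) and -0.06 from Low.UMI.Nonpep (22 markers). The low level of these markers was thus not particular to Low.UMI.Pep. The other cells include the Unknown clusters, and the part of these clusters in each fold change of Low.UMI.Pep was not tested.

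Among the lowest genes that are not markers of another cell type, those of the mitochondrial genome and the long non-coding RNA Malat1 led. All 13 mitochondrially encoded genes in the table were lower in Low.UMI.Pep, with a median log2 fold change of -2.68 and a summed share of 231.4% in Low.UMI.Pep, against 1011.6% in other cells. The authors' deposited table has the cytochrome oxidase subunits mt-Co2 and mt-Co1 at -3.06 and -2.98 and mt-Cytb, cytochrome b, at -2.99. The same authors' deposited table has transcripts of mt-Co2 in 29.7% of Low.UMI.Pep cells and 90.3% of other cells, and of mt-Cytb in 24.6% and 89%. The smallest difference was that of mt-Nd6, a subunit of complex I, at -0.41 with 1.1% and 36.6%, in the authors' deposited table. On the scale of all cells Low.UMI.Pep was the lowest cluster for mt-Co1, mt-Co2 and mt-Cytb, at -2.79, -2.87 and -2.80. The same list had a median of -0.90 in Low.UMI.Nonpep, with 12 listed genes, -2.13 in Low.UMI.LTMR, also with 12, -0.50 in Peptidergic.488p, with 13, and 0.47 in CGRP-e, with 9.

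Nuclear genes for the same respiratory complexes went the other way. This family was gathered after the data were seen, from the symbols of the subunits of the respiratory complexes, and 47 of its 84 genes in the table were listed. Of these, 36 were higher and none lower, with a median log2 fold change of 0.46. All 36 were found in a smaller share of Low.UMI.Pep cells than of other cells. In Low.UMI.Nonpep 24 were higher and none lower (median 0.33), and in Peptidergic.488p 17 and none (0.33). In Low.UMI.LTMR 13 were higher and 1 lower (0.39), and in CGRP-e none was higher and 1 lower (-0.28). Higher members were thus not particular to Low.UMI.Pep. For the cytosolic ribosomal proteins, gathered in the same way, 12 of 80 were listed, 7 higher and 1 lower. None of the 7 was in a larger share of Low.UMI.Pep cells. The counts of both families stand beside 10.8% higher and 20.7% lower over all genes of the table. The 7 of 80 ribosomal genes are near that share of higher genes, so they show no rise of the family.

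Long non-coding RNAs retained in the nucleus were lower in 7 of 7 listed cases, of 9 in the table, beside 20.7% over all genes. Their median log2 fold change was -1. In the authors' deposited table Malat1 was at -4.20 (37.8% of Low.UMI.Pep cells and 87.3% of other cells), the imprinted Meg3 at -2.85 (12.7% and 60.7%), Snhg11 at -1.93 (11.3% and 50.8%) and Neat1, the scaffold of paraspeckles, at -1 (0.6% and 30.5%). Malat1 was at -3.99 on the scale of all cells in Low.UMI.Pep, and lowest in Low.UMI.LTMR at -4.16. The labels' extraction protocol describes an isolation of nuclei, while the design text speaks of sorted cells, and the table does not tell which gave the cells of Low.UMI.Pep.

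Long genes were more often among the lower genes of the cluster. All 22 listed synaptic adhesion and cell recognition genes were lower, of 28 in the table, beside 20.7% over all genes. Their median log2 fold change was -1.09. Per the authors' deposited table, Csmd1, a large membrane protein of the complement control family, was at -2.91 (3.4% of Low.UMI.Pep cells and 56.3% of other cells), Lsamp, a neural adhesion molecule, at -1.85 (17.2% and 58.2%), and Rbfox1, a neuronal splicing factor placed in the same list, at -1.57 (22.2% and 53.5%). Gene spans, from start to end with introns, were taken from the GENCODE M21 annotation of GRCm38. The median span was 12.9 kb for higher genes and 103 kb for lower genes of Low.UMI.Pep, against 31.6 kb for all genes of the table. The 40 genes higher and in a larger share of cells had a median of 6.01 kb. Exonic length gave the same order, 3.04 kb for higher and 7.52 kb for lower genes, against 4.72 kb for all.

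Of the 982 genes under 5 kb, 20.9% were higher and 10.1% lower in Low.UMI.Pep, whereas of the 844 genes of 200 kb and over 1.78% were higher and 62.1% lower. CGRP-e had the opposite slope, with 30.1% of the genes of 200 kb and over higher and 9.36% lower. Low.UMI.Nonpep lay near Low.UMI.Pep, with 2.37% higher and 57.9% lower in that class. Across the 20 clusters Low.UMI.Pep had the shortest median span of higher genes, the other 19 lying between 15.2 and 107 kb, and the longest median span of lower genes, the other 19 lying between 25.4 and 93.8 kb. Short genes were among the lower ones too, such as mt-Co1, of 1.54 kb, and Malat1, of 6.98 kb.

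**Figure D4:**
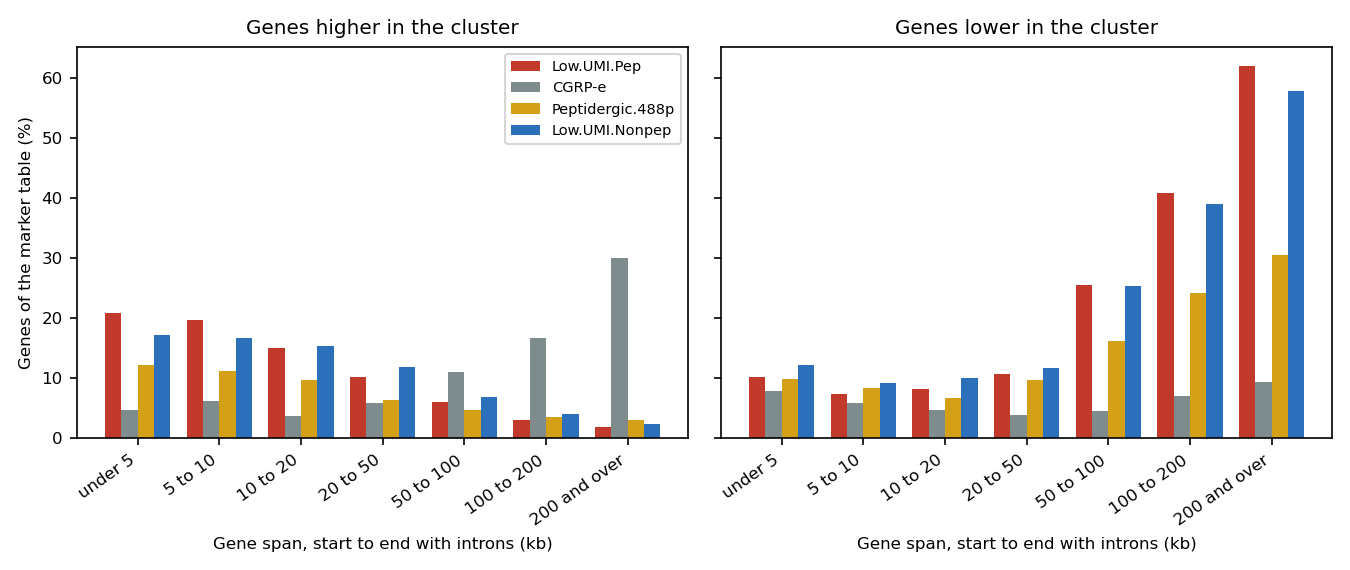
Percent of the marker table's genes called higher (left) or lower (right) in Low.UMI.Pep, CGRP-e, Peptidergic.488p and Low.UMI.Nonpep, by gene span in kb. In Low.UMI.Pep the higher share is 20.9% under 5 kb and 1.78% at 200 kb and over, and the lower share is 10.1% and 62.1%.

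Channel genes that were listed were more often lower than higher, but many were not listed. Of 14 calcium channel genes in the table, 8 were listed, 6 lower and 2 higher, and of 19 potassium channel genes 9 were listed, 8 lower and 1 higher. Of 12 sodium channel genes 3 were listed, all lower. These counts stand beside 20.7% lower and 10.8% higher over all genes of the table. Per the authors' deposited table, Cacna1c, an L-type calcium channel that spans 609 kb, was at -1.49 (7.7% of Low.UMI.Pep cells and 53.1% of other cells), Kcnip4, a potassium channel partner, at -1.17 (10.7% and 48.2%), and the pain channel Scn11a at -0.53 (18.2% and 49.6%). Of 11 TRP and sensory channel genes in the table, 5 were listed, 4 lower and 1 higher, and Asic3, an acid-sensing channel of 4.44 kb, was the higher one at 0.48 (6.5% and 12.9%) in the authors' deposited table. The opioid and inhibitory receptors went the other way, with 5 of 10 in the table listed, 3 higher and none lower. Oprm1, the μ-opioid receptor, was at 0.33 in the authors' deposited table, with 22.3% of Low.UMI.Pep cells and 42% of other cells, and Adra2c, an adrenergic receptor, at 0.35, with 6.6% and 18.2%.

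Of 20 transcription factors of sensory neurons in the table, 12 were listed, 8 lower and 3 higher. Over all genes 20.7% were lower and 10.8% higher, and the 3 of 20 are near that share of higher genes. Zfhx3, at -1.16, and Runx1, a factor of nonpeptidergic neurons, at -0.63, are examples of the lower ones in the authors' deposited table. Immediate early genes, which respond to stimulation and to dissociation of tissue, were lower in 14 of 14 listed cases, of 15 in the table. Over all genes 20.7% were lower. The median log2 fold change of the 14 was -1.30. Egr1 was at -2.08 (10.3% of Low.UMI.Pep cells and 67.8% of other cells) and Fos at -1.59 (38.5% and 80.3%) in the authors' deposited table. On the scale of all cells Fos was at -1.45 in Low.UMI.Pep, lowest in Peptidergic.488p, at -2.87, and highest in the cluster Unknown.2, at 1.71. All listed immediate early genes were also lower in Peptidergic.488p (13, median -1.62), Low.UMI.Nonpep (14, -1.32) and Low.UMI.LTMR (14, -1.43). In CGRP-e 3 of 4 listed were lower (-0.50). Their low level was thus not particular to Low.UMI.Pep. Of 15 heat shock genes in the table, 13 were listed, 7 higher and 4 lower, to be read beside the same shares over all genes. Hsp90aa1, a cytosolic chaperone, was at 0.90 and Hspa1a, the inducible one, at -0.94 in the authors' deposited table.

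The 20S proteasome is the complex whose surface form the sort was built on. Of its 14 subunit genes in the table, 12 were listed, 8 higher and none lower, with a median log2 fold change of 0.55. Over all genes, 10.8% were higher and 20.7% lower. In Low.UMI.Nonpep 8 of the 14 were also higher and none lower, with a median of 0.31. In Peptidergic.488p 7 were higher and none lower, with a median of 0.39. In Low.UMI.LTMR 1 was higher and in CGRP-e none, and none was lower in either. The count of higher subunits was thus not particular to Low.UMI.Pep. Psmb5, which encodes the β5 subunit used as the epitope, was at 0.69 in the authors' deposited table, with 53.9% of Low.UMI.Pep cells and 71.5% of other cells. On the scale of all cells Low.UMI.Pep was first for Psmb5 of the 10 clusters that list it, at 0.57, with Peptidergic.488p next at 0.37. All 8 higher subunits were in a smaller share of Low.UMI.Pep cells, and a transcript level does not tell where the protein is. Of the membrane glycoproteins Gpm6a and Gpm6b, which have been reported to hold proteasomes at the membrane, Gpm6a was not listed and Gpm6b was lower at -1.63 (0.5% and 21%) in the authors' deposited table.

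Low.UMI.Pep was then set directly against 3 clusters, as the difference of their levels relative to all cells, for the genes listed for both. CGRP-e was chosen as a peptidergic cluster without the prefix, Peptidergic.488p as the other cluster named peptidergic, and Low.UMI.Nonpep as the cluster of another neuron class with the same prefix. In Peptidergic.488p all 5 Mrgpra3 itch markers of the table were higher, with a median log2 fold change of 1.29. Of its 9 listed peptidergic C-fibre genes, 3 were higher and 5 lower. Over all 9229 genes, 651 were higher and 1270 lower there. It is therefore not a plain peptidergic counterpart. All 3 comparisons start from fold changes that share most of their cells, so their values are given side by side only. The median difference was near 0 in each, at -0.08, 0.02 and 0.

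Against CGRP-e, 6 of 1080 genes (0.556%) were higher in Low.UMI.Pep by 1 log2 unit or more and 159 (14.7%) lower by as much. Of the 6 higher genes, 2 passed the adjusted p filter in both clusters, and none encodes a neuropeptide. They are Cmss1 (3.27), the predicted genes Gm42418 (3.08) and AY036118 (2.64), which overlap ribosomal RNA repeats, Lxn, latexin (1.32), Cdk8 (1.29) and Rgs10, a regulator of G-protein signalling (1.08). The levels of Gm42418 and AY036118 are uncertain for that reason. Cmss1 had a like fold change in CGRP-e, at -2.60 beside -2.48 for Gm42418 and -2.16 for AY036118. Whether its level carries the same uncertainty was not tested. The 6 neuropeptide precursors listed for both differed by between -0.70 (Cartpt) and 0.56 (Tac1), with a median of 0.12. Calca differed by 0.02 and Adcyap1 by -0.04, although in the authors' deposited table Adcyap1 was in 51.4% of Low.UMI.Pep cells and 100% of CGRP-e cells. The lowest genes were Meg3 (-3.71), Lsamp (-3.43), mt-Co2 (-3.42), Nrg3, neuregulin 3 (-3.31), and mt-Cytb (-3.25). All 9 mitochondrial genes listed for both were lower by 1 or more, with a median difference of -3.12, and 16 of 21 synaptic adhesion genes were, with a median of -1.90.

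Against Peptidergic.488p, 39 of 1833 genes (2.13%) were higher in Low.UMI.Pep by 1 or more and 61 (3.33%) lower. Here the peptides led. Tac1 differed by 5.74, and the authors' deposited table finds it in 95.2% of Low.UMI.Pep cells and 18.2% of Peptidergic.488p cells. Fxyd7 differed by 3.19, Gal by 2.99, Adcyap1 by 2.88, Lgals1, galectin 1, by 2.56 and Cartpt by 2.22. Calca differed by less, 0.89, and was in 95.5% of Low.UMI.Pep cells and 99.1% of Peptidergic.488p cells in the authors' deposited table. Lower in Low.UMI.Pep were Lxn (-2.98), Rgs4, another regulator of G-protein signalling (-2.55), the tetraspanin Tspan8 (-2.54), mt-Cytb (-2.43) and mt-Co2 (-2.39). Of the nonpeptidergic markers, Cd55, a complement regulator, was lower by 1.86 on the log2 scale and 4 of 6 in the Mrgprd list were lower by 1 or more. The 9 proteasome subunits listed for both differed by between -0.07 and 0.25.

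Against Low.UMI.Nonpep, a cluster in which an average cell had 420 of its 3059 listed genes, 31 of 2069 genes (1.5%) were higher in Low.UMI.Pep by 1 or more and 55 (2.66%) lower; 20 of the higher ones passed the adjusted p filter in both clusters. Scg2 differed by 2.46, Tac1 by 2.44, Adcyap1 by 2.18, Gap43 by 2.17 and Tmem176b by 2.07. For these genes the shares went with the levels. In the authors' deposited table, Scg2 was in 75.9% of Low.UMI.Pep cells and 21.3% of Low.UMI.Nonpep cells, Adcyap1 in 51.4% and 7.6%, and Gap43 in 71.6% and 18.5%. Lower in Low.UMI.Pep were Cd55 (-2.47), Scg3 (-2.30), the membrane proteins Tmem45b (-2.24) and Tmem233 (-2.15), and Acpp, the acid phosphatase of nonpeptidergic neurons (-2.07). Much of the rest of the profile did not differ by 1 or more between the 2 clusters. None of the 21 synaptic adhesion genes, the 7 long non-coding RNAs or the 14 immediate early genes listed for both did, with medians of 0.01, 0.01 and 0.28. Some of these were in few cells of both clusters, such as Ctnna3 (0.3% and 0.5%) and Neat1 (0.6% and 0.4%). Others were in more, such as Malat1 (37.8% and 42.7%). A constant is added to each mean before the log2, so for the rare genes a difference of 1 could hardly appear. Their small differences therefore do not show that the clusters are alike. Of the 12 mitochondrial genes listed for both, by contrast, 8 were lower in Low.UMI.Pep by 1 or more, with a median difference of -1.65. For mt-Co2, in 29.7% of Low.UMI.Pep cells and 56% of Low.UMI.Nonpep cells in the authors' deposited table, the difference was -2.05.

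**Figure D5:**
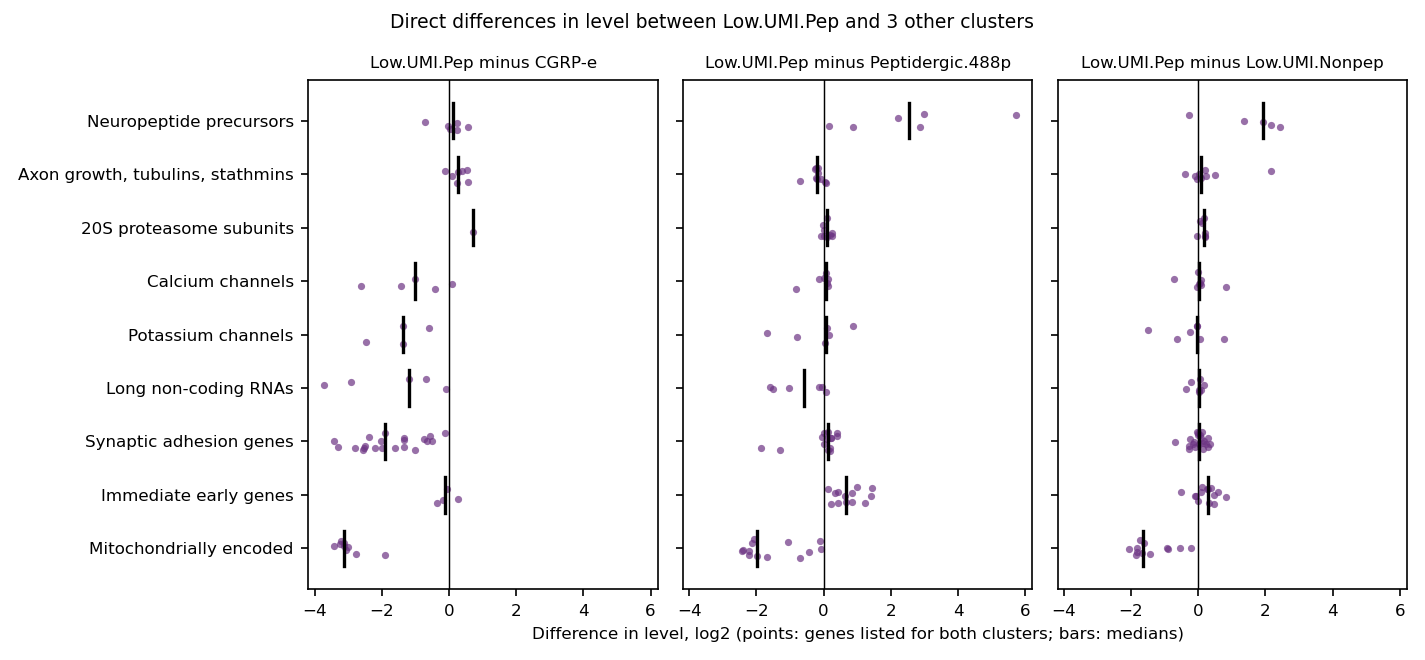
Direct differences in level (log2) between Low.UMI.Pep and CGRP-e, Peptidergic.488p and Low.UMI.Nonpep for members of 9 gene lists, 1 point for each gene listed for both clusters and a bar at the median. Mitochondrially encoded genes have medians of -3.12, -1.98 and -1.65, neuropeptide precursors 0.12, 2.55 and 1.92, and synaptic adhesion genes -1.90, 0.13 and 0.01.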

How the data were processed

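RNA of mouse dorsal root ganglia was sequenced as 1 single-cell library for each sorted population, per the labels; the design text speaks of cells, the extraction protocol of nuclei. The authors clustered the cells with Seurat, per the submitters' processing notes, and deposited 1 table with, per its file headers, log2 fold changes, the fraction of cells with each transcript in the cluster and in all other cells, and p-values with adjusted p-values. Aligner, build, normalization, treatment of doublets and cell numbers were not given in the sources used here. A pair of gene and cluster is in the table only where the absolute log2 fold change reached 0.25, the p-value was at most 0.01 and 1 of the 2 shares was at least 10%, as its values show, and a gene that is not listed has no value. Adjusted p-values equal the p-values times 32285 up to 1. They come from cells of 1 library per population, so they were used here as a filter at 0.05 and not as tests.

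Cluster sizes were solved by least squares from the shares of 6748 genes that differ by at least 5 percentage points, with a residual of 0.0256 percentage points. With a cluster's share of cells w and log2 fold change L, its level over all cells, on the log2 scale, is L minus log2 of the sum of w times the fold and 1 - w. Over 34 genes listed for all 20 clusters, the weighted levels summed to between 0.99999 and 1.00014. The steps were tested on simulated data. Python 3.11.15, pandas 2.3.3, NumPy 2.4.6, SciPy 1.17.1 and matplotlib 3.10.9 were used.

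The 38 gene lists hold 397 genes, 374 of them in the table; the cluster and the lists were chosen with earlier results of these data known. Genes named are the 15 highest and 10 lowest past the filter without predicted genes, the 5 higher genes with the widest gap in share each way, all members of the 4 peptide lists, up to 5 of each other list, the 5 most different each way in each direct comparison, Psmb5, Gpm6a and Gpm6b. Rgs10, Cartpt in the direct comparisons and list members beyond these were named after their values were seen. Alternatives were other fold thresholds, no p-value filter, a minimum share of cells, leaving out gene families, plain differences of deposited fold changes and other fits of cluster size. Some genes that this rule names are not reported here.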

Additional observations from a re-analysis of the deposited data

How the results depend on the processing

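With an absolute log2 fold change of at least 0.5, 212 genes were higher and 806 lower in Low.UMI.Pep, and 81.1% of the higher genes were in a smaller share of its cells; at 1 or more these were 27, 217 and 29.6%. Without the adjusted p filter there were 1119 higher and 1908 lower genes, with at least 25% of cells on either side 965 and 1493, and without predicted, ribosomal and mitochondrially encoded genes 965 and 1863, and the share stayed between 95.8 and 96.2%. With a difference of at least 0.5, 31 genes were higher and 320 lower in Low.UMI.Pep than in CGRP-e, 120 and 132 than in Peptidergic.488p, and 97 and 111 than in Low.UMI.Nonpep. Past the adjusted p filter in both clusters, 2 genes were higher by 1 or more than in CGRP-e and 20 than in Low.UMI.Nonpep. The counts of members higher or lower in each list moved by over 1.5 times in 21 cases and not in 55 with a change of at least 0.5, in 39 with one of at least 1, in 10 with the minimum share and in 2 without the p filter. A plain difference of the deposited fold changes kept the 6 direct counts within 1.5 times, for example 7 higher and 168 lower against CGRP-e, and the cluster's share of cells was 14.1% in each fit. At 1 or more, then, fewer higher genes were in a smaller share of Low.UMI.Pep cells than in a larger one (19 of 27), the opposite of the count over all higher genes. No other alternative turned a direction.

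The depth of each cell and the number of cells are unknown, a fold change near 0.25 decides whether a gene is listed, and direct differences exist only for genes listed for both clusters. Leaving out replicates was not run, as the table has none. No paired analysis was possible because the columns of the table carry no sample or replicate.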
